A study of Mus musculus with 9 samples.

Results

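The bone morphogenetic protein (BMP) pathway was followed here through 10 genes, which were taken by their symbols in the authors' annotation. They were the ligand genes Bmp2, Bmp4 and Bmp7, the antagonist genes Bambi, Fst and Nog, and the target genes Id1, Id2, Id3 and Id4. Each of the 10 matched 1 transcript cluster, the unit that the array reads for a gene, out of 39601 clusters that carry a gene symbol. All 10 are protein-coding, and the annotated position of each overlapped the RefSeq gene of mouse assembly GRCm38.p6. The sources used here do not give the genome build of the annotation itself.

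RNA was measured on whole-transcript microarrays in 3 groups of 3 samples. The adult samples were living Sox2-GFP+ cells sorted from labial cervical loops of Sox2-GFP mice at postnatal day 30. The embryo samples were living Sox2-GFP+ cells sorted at E14.5 from dissected incisors of Sox2-GFP embryos, and labelled as incisor epithelium. The third group was purchased mouse embryonic stem cells (mESC), which were neither dissected nor sorted, per the labels. All dental samples shared the reporter and the sort, and each pooled several animals. The labels number 3 biological replicates a group but do not say whether the mESC samples were separate cultures, so for mESC the spread may be technical alone. The 3 groups share 1 estimate of the spread in the fit, so the p-values of adult against embryo rest in part on it too. The sources used here do not give the mESC culture medium. Values are log2 signals normalised by the authors, a step of 1 is a doubling, and each gene is compared only with itself, since probes differ in brightness. The median log2 signal of 5222 negative-control probe sets was 4.81, and a value at or below it carries no dependable level. Their 95th percentile was 9.27, so a value between the median and 9.27 still lies within the range of the controls.

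BMP ligands are secreted proteins that bind paired serine/threonine kinase receptors, which phosphorylate SMAD1, SMAD5 and SMAD9 and so switch on target genes. Antagonists act outside the cell by trapping ligand, as noggin and follistatin do, or at the membrane, as does BAMBI, a receptor-like protein without a kinase domain. Id genes are widely used as readouts of the pathway. Their products lack a DNA-binding region and hold E proteins in dimers that cannot bind DNA. In the mouse tooth, BMP4 passes between epithelium and mesenchyme and promotes ameloblast differentiation, which follistatin limits. In mouse embryonic stem cells, BMP acts through Id genes to hold back neural differentiation.

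The labelled cell types were set against marker lists. The 12 epithelial markers had a mean log2 signal of 11.72 to 12.8 on the adult arrays, 12.12 to 12.68 on the embryo arrays and 7.76 to 8.09 on the mESC arrays. The 10 pluripotency markers averaged 4.4 to 4.49, 4.39 to 4.55 and 12.24 to 12.31 on the same arrays. The adult sort also held signal of other cells: 12 mesenchyme markers averaged 9.23 to 11.17 in adult and 6.82 to 8.03 in embryo, and 11 of the 12 lay above the negative-control median on each array of either group. The 12 macrophage and leukocyte markers averaged 9.17 to 9.39 in adult and 4.71 to 5.43 in embryo. C1qb, C1qc, Adgre1, Ptprc and Fcer1g stayed at or below that median on all embryo arrays. Yet 7 of the 12 lay above it on embryo replicate 1, 3 on replicate 2 and 4 on replicate 3. Cd68 reached 9.81, Csf1r 6.73 and Tyrobp 6.53 in embryo. The 8 osteoblast and odontoblast markers averaged 7.42 to 9.82 in adult and 4.58 to 4.79 in embryo, where Sp7, Dmp1, Dspp and Phex lay at or below the median. Runx2 and Spp1 lay above it on all embryo arrays, and Bglap and Ibsp on some of them. The 8 ameloblast markers averaged 12.3 to 14.74 in adult and 5.34 to 5.84 in embryo. Amtn, Klk4, Mmp20 and Calb1 lay at or below the median in embryo, whereas Amelx, Ambn, Enam and Odam lay above it on all embryo arrays. Odam overlapped between the groups, with a mean of 7 in adult and 7.53 in embryo. Amtn on adult replicate 2 (4.39) and Klk4 on adult replicates 2 and 3 (3.87 and 4.04) were also under the median. The mean of the 8 endothelial markers stayed near the median in both groups (4.81 to 4.97 in adult and 4.26 to 4.56 in embryo). Single markers differed from that mean. Cdh5 had 6, 6.1 and 5.77 in adult and 4.7, 4.19 and 4.79 in embryo, and Pecam1 also lay above the median on all adult arrays. Cldn5 and Esam lay under it on all arrays of both groups. Immediate early genes, which respond to cell dissociation, averaged 9.23 to 9.96 in adult, whereas embryo replicate 3 (7.04) lay far under the other embryo arrays (9.8 and 10.05).

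Adult replicate 1 stood apart from the other adult arrays. It had the highest adult mean for ameloblast (14.74 against 12.3 and 12.53), mesenchyme (11.17 against 9.58 and 9.23) and osteoblast markers (9.82 against 7.47 and 7.42), and the lowest for epithelium. Sox2, the gene of the sort, was also lowest there, at 8.75 against 10.49 and 10.26 on the other adult arrays. Values without this array are given beside the results that it moves.

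**Figure D1:**
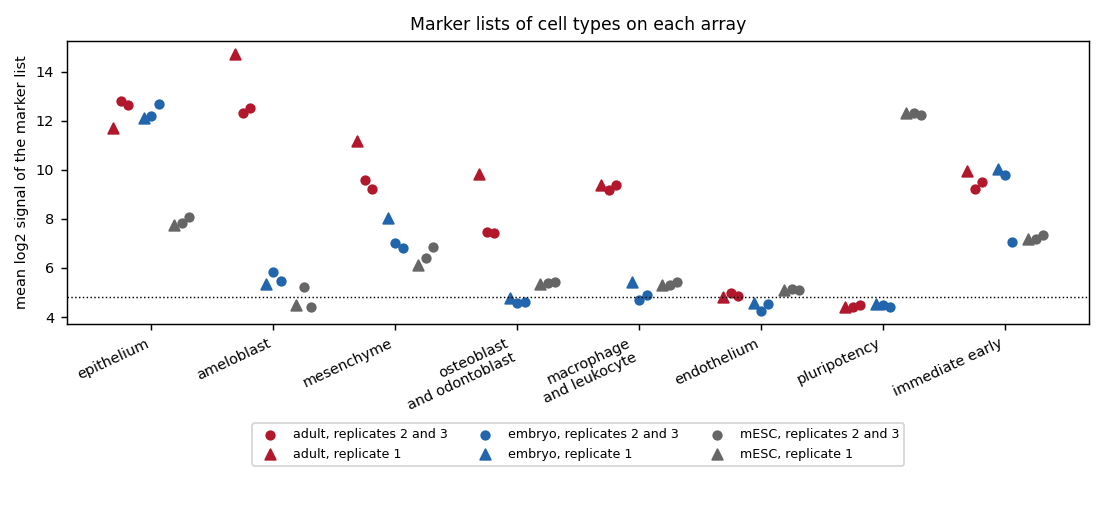
Mean log2 signal of each marker list on each array, with replicate 1 of each group drawn as a triangle and the negative-control median of 4.81 as a dotted line. Adult replicate 1 lies above the other adult arrays for ameloblast, mesenchyme and osteoblast markers and below them for epithelium, and embryo replicate 3 lies low for immediate early genes.

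Most of the 10 genes separated the dental cells from mESC rather than the dental ages from each other. Against mESC, 8 of the 10 were higher in adult cells and 6 of the 10 in embryo cells, and none was lower. Between adult and embryo, Bmp4 alone passed the threshold, higher in adult. A gene was called here at an adjusted p under 0.05 in limma with Benjamini-Hochberg adjustment over all 39601 clusters, and a log2 difference of at least 1. By that rule 6.86% of all clusters were higher in adult than in mESC, 4.87% higher in embryo than in mESC, and 6.41% differed between adult and embryo (2.83% higher in adult). The median difference of the members was 2.33 for adult minus mESC, 2.75 for embryo minus mESC and 0.26 for adult minus embryo, beside -0.07, -0.07 and -0.01 over all clusters. The first and second of these comparisons share their mESC arrays. In such bulk samples fewer cells of a type and less RNA per cell cannot be told apart.

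**Figure D2:**
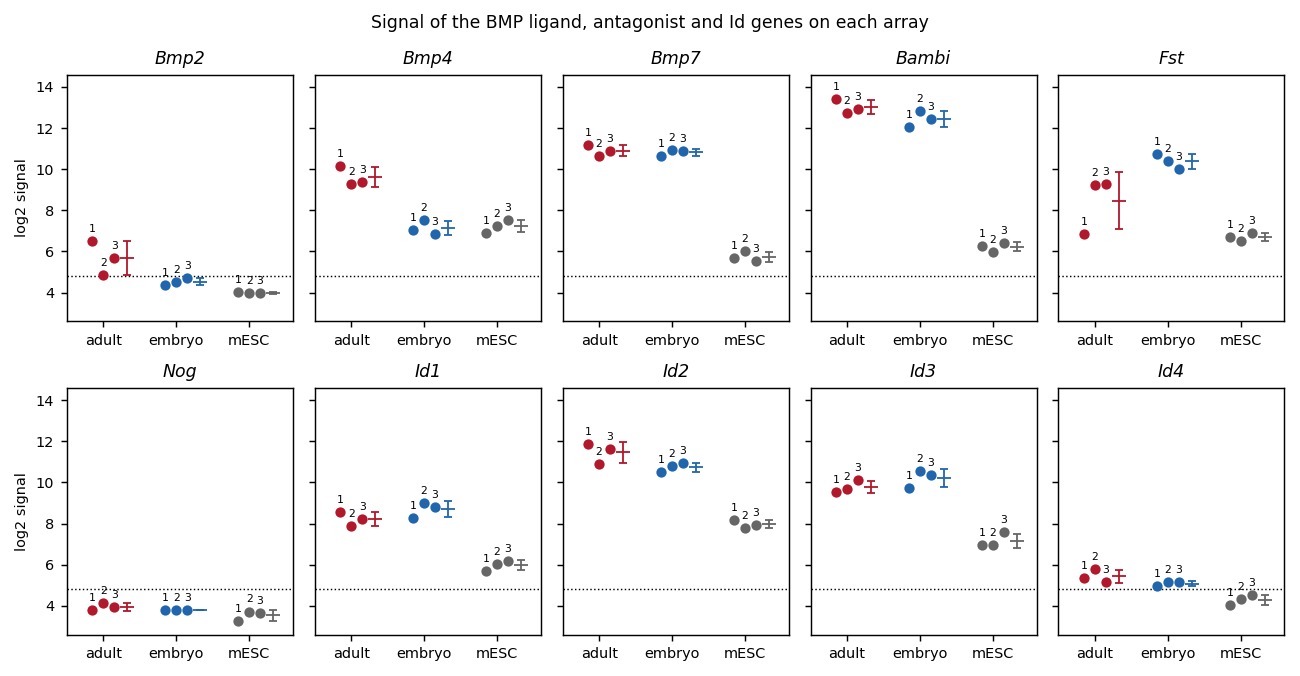
Log2 signal of each of the 10 genes on each array, with replicate numbers over the points, the mean ± SD of the 3 arrays to their right and the negative-control median as a dotted line. The mESC arrays lie under all dental arrays for Bmp2, Bmp7, Bambi and the 4 Id genes, Bmp4 is high in adult alone, and Fst on adult replicate 1 lies at the mESC level.

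Among the ligand genes, Bmp4 and Bmp7 had different patterns over the 3 groups. Bmp4 lies on chromosome 14 from 46383520 to 46390669. Its log2 signals were 10.17, 9.3 and 9.39 in adult, 7.03, 7.53 and 6.86 in embryo, and 6.91, 7.26 and 7.51 in mESC. Every adult array thus lay above every other array, while embryo and mESC overlapped. Bmp4 was 5.58-fold higher in adult than in embryo (log2 difference 2.48 ± 0.28 SE, adjusted p = 0.000967 by limma) and 5.25-fold higher in adult than in mESC (2.39 ± 0.28, adjusted p = 0.000323). Embryo and mESC differed by -0.09, with a 95% confidence interval of -0.74 to 0.56. Adult replicate 1 held the highest Bmp4 signal, and without it the difference from embryo was 2.2 (adjusted p = 0.00149). In the fit of the dental arrays alone, with no mESC array in the spread, it was 2.48 (adjusted p = 0.00934). Several marker lists were also higher in adult than in both other groups. Their median differences of adult minus embryo were 10.05 for ameloblast, 3.86 for macrophage and leukocyte, 3.74 for osteoblast and odontoblast, and 2.47 for mesenchyme markers. The part of any of these in the Bmp4 difference was not tested.

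In the authors' deposited table for this comparison, Bmp4 had a fold of -4.88 for embryo over adult, and its adjusted p of 0.07013 did not pass. The column names of a second deposited table carry 1 of 2 digit strings that read like days, and what they mark is not stated. The first string stands on 2 adult columns and 1 embryo column, the second on the 3 mESC columns, 2 embryo columns and 1 adult column. The Bmp4 difference of adult minus embryo was 2.2 within the first (adjusted p = 0.381), where 3 arrays allow 1 residual degree of freedom and limma called 0 clusters (6112 at an unadjusted p under 0.05). Within the second it was 2.45 (adjusted p = 0.0181), where the 1 adult array is assumed to vary like the embryo and mESC arrays, as the 1 embryo array of the first string is assumed to vary like the adult arrays. With the string as a block it was 2.33 (adjusted p = 0.00232). The names of the second table also carry sample codes, and 2 embryo columns, 1 of each string, share a code. They may be 1 sample, and with them averaged the Bmp4 difference was 2.55 (adjusted p = 0.00299).

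Bmp7, on chromosome 2 from 172868012 to 172940321, was high in both dental groups. It had 11.17, 10.63 and 10.88 in adult, 10.63, 10.92 and 10.9 in embryo, and 5.69, 6.02 and 5.55 in mESC. The dental arrays overlapped one another and all lay far above the mESC arrays. The difference from mESC was 5.14 ± 0.17 SE for adult (35.3-fold, adjusted p = 5.66e-07) and 5.06 ± 0.17 for embryo (33.4-fold, adjusted p = 7.72e-07). Adult minus embryo was 0.08, with a 95% confidence interval of -0.32 to 0.47, so a difference of the size seen for Bmp4 lay outside the interval.

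Bmp2, on chromosome 2 from 133552159 to 133562896, was dim. Its signals were 6.49, 4.87 and 5.67 in adult, 4.39, 4.51 and 4.7 in embryo, and 4.05, 3.96 and 3.97 in mESC. All embryo and mESC arrays lay under the negative-control median, so a difference from them may be understated. Bmp2 was higher in adult than in mESC (log2 difference 1.68 ± 0.35 SE, adjusted p = 0.00615), and the call was kept without adult replicate 1 (1.28, adjusted p = 0.00415). In the authors' deposited table that comparison had an adjusted p of 0.099875. Adult and embryo did not overlap, yet the difference of 1.14 did not pass (adjusted p = 0.0653), and it was 0.74 without adult replicate 1 (adjusted p = 0.0769). Without adult replicate 2, the lowest adult array, it was 1.55 and passed (adjusted p = 0.00599). Non-overlapping groups were found for 27.8% of all clusters in this comparison, and for Bmp2, Bmp4, Fst and Id4 among the members.

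The antagonist genes gave 3 different patterns. Bambi, on chromosome 18 from 3507957 to 3516404, had the largest differences from mESC of the 10 genes. Its signals were 13.41, 12.74 and 12.94 in adult, 12.03, 12.81 and 12.44 in embryo, and 6.27, 5.97 and 6.41 in mESC. Bambi was 112-fold higher in adult than in mESC (log2 difference 6.81 ± 0.24 SE, adjusted p = 7.47e-07) and 74-fold higher in embryo than in mESC (6.21 ± 0.24, adjusted p = 1.6e-06). These differences ranked 77 and 81 by size among all 39601 clusters of their comparison. The adult and embryo arrays overlapped, and their difference of 0.6 (95% confidence interval 0.05 to 1.16) did not pass (adjusted p = 0.152).

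Fst, which encodes follistatin, an antagonist of activin that also binds BMPs, was the 1 member highest in embryo by a log2 difference over 1. It lies on chromosome 13 from 114452262 to 114458775. Its signals were 6.87, 9.24 and 9.3 in adult, 10.74, 10.38 and 10.01 in embryo, and 6.69, 6.5 and 6.9 in mESC. All embryo arrays were above all adult arrays, and adult replicate 1 was within the mESC range while the other adult arrays lay well above it. Fst was 12.8-fold higher in embryo than in mESC (3.68 ± 0.6 SE, adjusted p = 0.00288). Adult minus embryo was -1.91 ± 0.6 and did not pass (adjusted p = 0.0762), and adult minus mESC was 1.77 ± 0.6 and did not pass either (adjusted p = 0.0531).

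Both Fst comparisons of adult lay near the threshold and moved with adult replicate 1. Without it, adult minus embryo was -1.11 and passed (adjusted p = 0.0156), and adult minus mESC was 2.57 and passed (adjusted p = 0.000143). With it, the adult SD of Fst was 1.39, the largest of the 10 genes. With all arrays kept, adult minus embryo passed where dim clusters were left out (adjusted p = 0.0164 and 0.03 under the stricter and the looser filter on negative controls). Adult minus mESC passed under the same filters (adjusted p = 0.0144 and 0.0223), with array weights (0.0127), with median centring (0.0414) and with an intensity trend (0.0468). Yet adult minus embryo stayed uncalled in 21 of 24 other settings and adult minus mESC in 16 of 23. In the authors' deposited tables the adjusted p of Fst was 0.434613 between embryo and adult and 0.244886 between adult and mESC. Within the first digit string adult minus embryo was -2.33, and within the second -1.07. Each had 1 array in an arm, whose spread was taken from the arrays of the other groups. With the string as a block it was -1.7 (adjusted p = 0.152). Adult replicate 1 also had the lowest epithelial and the highest ameloblast, mesenchyme and osteoblast markers of the adult arrays. The part of any of these in its low Fst was not tested.

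Nog, on chromosome 11 from 89300638 to 89302559, encodes noggin. Its signals were 3.78, 4.15 and 3.95 in adult, 3.79, 3.79 and 3.8 in embryo, and 3.25, 3.73 and 3.66 in mESC. All 9 values lay under the negative-control median, so no level and no order can be given for it.

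**Figure D3:**
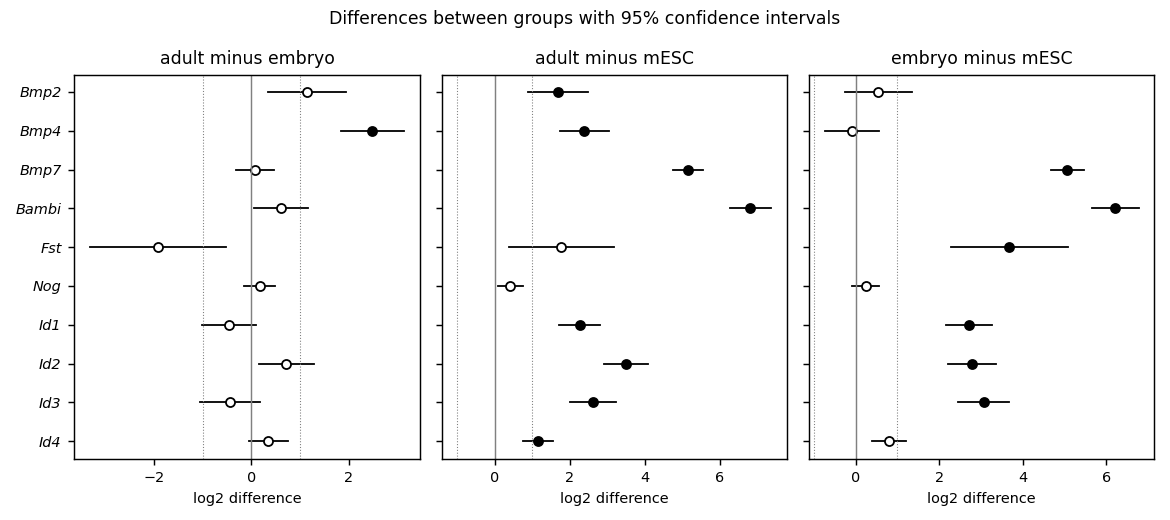
Log2 difference of each gene for adult minus embryo, adult minus mESC and embryo minus mESC, with 95% confidence intervals of the limma fit, filled points for called genes and dotted lines at -1 and 1. Bmp4 is the 1 filled point for adult minus embryo, whereas Bmp7, Bambi, Id1, Id2 and Id3 are filled in both comparisons with mESC.

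All 4 Id genes had every adult and every embryo array above every mESC array. Such complete separation upward was found for 16.9% of all clusters between adult and mESC and 15.6% between embryo and mESC. Id1, on chromosome 2 from 152736251 to 152737410, had 8.56, 7.9 and 8.24 in adult, 8.27, 9 and 8.82 in embryo, and 5.7, 6.06 and 6.17 in mESC. It was 4.78-fold higher in adult than in mESC (2.26 ± 0.24 SE, adjusted p = 0.000183) and 6.59-fold higher in embryo than in mESC (2.72 ± 0.24, adjusted p = 0.000116). Id3, on chromosome 4 from 136143497 to 136147320, had 9.56, 9.68 and 10.12 in adult, 9.74, 10.57 and 10.36 in embryo, and 6.96, 6.97 and 7.57 in mESC. Its differences from mESC were 2.62 ± 0.26 for adult (adjusted p = 0.00015) and 3.06 ± 0.26 for embryo (adjusted p = 0.000113).

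Id2 had the largest adult difference from mESC of the Id genes. It lies on chromosome 12 from 25093799 to 25096092 and had 11.88, 10.9 and 11.62 in adult, 10.51, 10.79 and 10.94 in embryo, and 8.17, 7.79 and 7.95 in mESC. It was 11.3-fold higher in adult than in mESC (3.5 ± 0.25 SE, adjusted p = 2.32e-05) and 6.85-fold higher in embryo than in mESC (2.78 ± 0.25, adjusted p = 0.000129). Id4, on chromosome 13 from 48261427 to 48264036, was dim, with 5.36, 5.78 and 5.18 in adult, 4.95, 5.17 and 5.15 in embryo, and 4.05, 4.32 and 4.51 in mESC. All mESC values lay under the negative-control median. Id4 was higher in adult than in mESC (1.15 ± 0.17, adjusted p = 0.00128), a call that the size threshold removed without adult replicate 2 (0.98), with the digit string as a block (0.98) and within the second string (0.89). In embryo its difference of 0.8 ± 0.17 (adjusted p = 0.0111) fell short of the size threshold.

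None of the Id genes was called between adult and embryo by limma, and 1 of the 4 had an unadjusted p under 0.05. The share of all clusters at that unadjusted cut-off is not given here, so this count has no background to be read against. Adult minus embryo was -0.46 for Id1 (95% confidence interval -1.01 to 0.09) and -0.44 for Id3 (-1.05 to 0.18), with higher means in embryo. It was 0.72 for Id2 (0.15 to 1.29) and 0.35 for Id4 (-0.05 to 0.75), with higher means in adult. The adjusted p was 0.0989 for Id2 and 0.256 to 0.366 for the others. Id2 passed without adult replicate 2 (1, adjusted p = 0.00958). The intervals of Id1, Id2 and Id3 reach past a log2 difference of 1, so they do not exclude a change of that size. Embryo replicate 3, with low immediate early genes, was not the lowest embryo array for any Id gene. That is 1 array, and a link between immediate early genes and Id genes was not tested.

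The Id promoters are shown because the Id genes share every dental array above every mESC array, although Id4 was not called for embryo. RefSeq sequences of assembly GRCm38.p6, from 250 bases before to 50 bases after the start site, were found for Id2 (chr12:25096043-25096342, minus strand), Id3 (chr4:136143572-136143871, plus strand) and Id4 (chr13:48260866-48261165, plus strand), but are not shown for Id1. Each is written 5′ to 3′ on the strand of its gene, and capitals mark matches to GGCGCC, a GC-rich sequence bound by BMP SMADs, or to CAGAC, the SMAD-binding element, on either strand.
Id2: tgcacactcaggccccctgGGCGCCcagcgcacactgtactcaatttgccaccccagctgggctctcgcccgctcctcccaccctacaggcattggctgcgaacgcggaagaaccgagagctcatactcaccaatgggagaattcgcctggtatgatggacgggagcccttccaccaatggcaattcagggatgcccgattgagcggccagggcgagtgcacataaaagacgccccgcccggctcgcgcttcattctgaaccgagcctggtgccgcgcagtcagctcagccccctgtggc
Id3: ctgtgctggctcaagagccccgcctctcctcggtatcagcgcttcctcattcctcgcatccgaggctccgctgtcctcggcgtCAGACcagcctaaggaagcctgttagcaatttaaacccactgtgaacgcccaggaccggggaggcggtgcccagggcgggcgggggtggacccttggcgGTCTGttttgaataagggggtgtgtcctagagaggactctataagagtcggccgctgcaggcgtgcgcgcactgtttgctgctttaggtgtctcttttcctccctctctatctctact
Id4: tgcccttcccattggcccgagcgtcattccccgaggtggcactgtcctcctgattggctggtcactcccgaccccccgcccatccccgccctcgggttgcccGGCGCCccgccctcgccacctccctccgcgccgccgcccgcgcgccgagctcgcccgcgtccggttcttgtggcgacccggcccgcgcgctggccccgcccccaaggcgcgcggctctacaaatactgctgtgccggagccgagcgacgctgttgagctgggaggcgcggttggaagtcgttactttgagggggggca
Id2 held 1 match to GGCGCC, which starts 231 bases before the start site, and Id4 held 1, which starts 148 bases before it. Id3 held none of these and 2 matches to CAGAC, of which 1 is written as its reverse complement GTCTG, starting 167 and 68 bases before the start site. No match of one motif overlapped a match of the other. Of 32851 promoters of the same length, 11.9% held GGCGCC and 49.6% held CAGAC on either strand. The matches describe these windows and say nothing of binding.

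Likeness between the members was measured as the mean absolute difference of their log2 signals over the 9 arrays, after each gene's own mean was subtracted. Over the 45 pairs it ran from 0.25 to 2.75 with a median of 1.06. Id1 and Id3 were the closest pair (0.25). Id2 lay 0.5 from Id3 and 0.55 from Id1, Bmp2 lay 0.53 from Bmp4, and Bmp7 lay 0.63 from Bambi. Nog and Id4 were also close (0.29), but both varied little and Nog lay under the negative-control median. The arrays form 3 separate groups, so these distances mostly describe differences between group means, and no correlation was computed.

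By the same measure, over 17827 other named genes, the closest genes to Bmp4 were Cdk18 (0.151), Clmp (0.221) and Tcn2 (0.221). Cdk18 had group means of 10.34 in adult, 7.94 in embryo and 8.18 in mESC. Closest to Bmp7 were Susd4 (0.141), Mgat5 (0.205) and Creb3l2 (0.236), and closest to Bmp2 were P4ha2 (0.137), Sh3bgrl2 (0.171) and Relt (0.175). For Bambi they were Scube3 (0.407), Tnfrsf19 (0.407) and Ptn (0.439), and for Fst they were Sdr39u1 (0.41), Nell2 (0.427) and Pld1 (0.44). Bambi and Fst thus had no neighbour as near as the other members had. The measure is not scaled to how much a gene varies over the arrays, so distances of genes with unlike spread are not directly comparable. For Id1 they were Slc25a24 (0.18), Wbp1 (0.189) and Olfm1 (0.203). Id2 lay nearest to Adam10 (0.194), Fbln1 (0.239) and Epm2aip1 (0.242). Id3 was nearest to Slc25a10 (0.12), Atxn7l3b (0.172) and Gstm5 (0.181). The nearest to Id4 were Adck2 (0.097), Rgma (0.099) and Gmpr (0.099), and to Nog they were Rhod (0.057), Atp8b2 (0.057) and Synrg (0.069).

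The rest of the pathway was described from 7 lists of its components. Between adult and embryo, 2 of the 11 other ligand genes were higher in adult and none lower, beside 2.83% of all clusters called higher. Bmp8a had 5.91, 5.27 and 5.06 in adult and 3.69, 3.83 and 3.9 in embryo (log2 difference 1.61 ± 0.2 SE, adjusted p = 0.0014). All its embryo values lay under the negative-control median, as did those of Eng and Sp7 below, so these differences may be understated. Gdf5, a ligand gene of joint formation, differed by 1.07 (adjusted p = 0.0436), a call lost in 16 of 22 other settings. Among these were the fit without adult replicate 1 (0.7) and that of the dental arrays alone (adjusted p = 0.126). Bmp3 reached 8.35 on adult replicate 1 against 5.94 and 5.95 on the other adult arrays, and its 1.96 did not pass (adjusted p = 0.065), whereas without that array it was 1.16 and passed (adjusted p = 0.00453). Bmp5 overlapped between the ages and was higher than in mESC in both adult (2.76 ± 0.41, adjusted p = 0.00117) and embryo (3.41 ± 0.41, adjusted p = 0.000614).

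Some of the receptor genes were called against mESC, and 1 was called between the dental ages. Of 11 receptors and co-receptors, 5 were higher and 1 lower in adult than in mESC, and 4 were higher and none lower in embryo than in mESC, beside 6.86% and 4.87% of all clusters called higher and 10.3% and 6.09% called lower in these comparisons. Bmpr2, the type II BMP receptor gene, had 14.33, 14.21 and 14.26 in adult, 14, 14 and 14.47 in embryo, and 10.39, 10.42 and 10.15 in mESC. Its difference from mESC was 3.95 ± 0.14 for adult (adjusted p = 7.18e-07) and 3.84 ± 0.14 for embryo (adjusted p = 1.12e-06). The type I receptor genes Bmpr1a and Acvr1 were higher than in mESC by 1.84 and 1.87 in adult and by 2.53 and 2.52 in embryo. Acvr2b, a type II receptor gene, went the other way, at -1.8 ± 0.09 for adult minus mESC (adjusted p = 5.09e-06). Between adult and embryo 1 of 11 was called, beside 2.83% of all clusters called higher and 3.59% called lower. It was the co-receptor gene Eng (1.14, adjusted p = 0.0287), which is also used as an endothelial marker, and none was called without adult replicate 1. By limma 5 of the 11, Eng included, had an adjusted p under 0.05, the others with a difference short of the size threshold. Such a p at any size was found for 15.9% of all clusters.

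The SMAD genes carry the signal to the nucleus or, as Smad6 and Smad7 do, inhibit it. Of 8 SMAD transducers and inhibitors, 3 were higher in adult than in mESC, 2 were higher in embryo than in mESC, and none was lower, beside the shares of all clusters just given. Smad5 had 9.22 on each adult array, 9.7, 9.75 and 9.85 in embryo, and 7.46, 7.21 and 7.26 in mESC. Its difference from mESC was 1.91 ± 0.08 for adult (adjusted p = 1.42e-06) and 2.46 ± 0.08 for embryo (adjusted p = 5.22e-07). The adult SD of Smad5 was 0 at the digits given, which lowers the shared spread behind these values. Why the adult values were equal was not tested. Smad1 was higher in embryo than in mESC by 1.46 (adjusted p = 0.000411), and Smad9 was higher in adult than in mESC by 1.19 (adjusted p = 0.000548). The inhibitory Smad6 differed by 1 for adult minus mESC (adjusted p = 0.000668), at the edge of the size threshold, and by 0.89 without adult replicate 1. None of the 8 was called between adult and embryo by limma, although 7 had an unadjusted p under 0.05, a cut-off for which the share of all clusters is not given here. Smad4, Smad5, Smad6 and Smurf2, named after their values were seen, had an adjusted p under 0.05 with a difference short of the size threshold, beside 15.9% of all clusters with such a p at any size.

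Among 18 other antagonists and extracellular regulators, 4 were higher in adult than in embryo and none lower, beside 2.83% of all clusters called higher and 3.59% called lower. Nbl1, which encodes an antagonist of the DAN family, differed by 2.19 ± 0.39 (adjusted p = 0.00737). Smoc2, which encodes a matrix protein, had 10.02, 8.73 and 7.43 in adult against 6.51 on each embryo array (2.22 ± 0.55, adjusted p = 0.0297). Fstl1 differed by 1.46 (adjusted p = 0.0315) and Smoc1 by 1.7 ± 0.31 (adjusted p = 0.00854). Smoc1 had 7.08, 6.74 and 6.11 in adult, 5.3, 4.82 and 4.72 in embryo, and the highest signals in mESC, with 8.74, 9.54 and 9.54. In all 4 genes adult replicate 1 was the highest adult array, and without it 4 of the 18 were again called higher, at 1.74 for Nbl1, 1.57 for Smoc2, 1.48 for Smoc1 and 1.04 for Fstl1. Over the 7 lists it was the highest adult array in 10 of the 12 genes called higher, in 50.7% of all 69 genes of the lists and in 28.5% of all clusters. Ameloblast, mesenchyme and osteoblast markers were highest on the same array, and their part in these calls was not tested. Nbl1, Eng, Runx2 and Sp7 were named after their values were seen. The Smoc2 call was lost in 13 of 22 other settings and the Fstl1 call in 10 of 23. Among these were the fit of the dental arrays alone (adjusted p = 0.103 for Smoc2 and 0.0692 for Fstl1) and the digit string as a block (0.0505 and 0.0735).

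Sostdc1, which encodes ectodin, a BMP and Wnt inhibitor known from mouse tooth patterning, had the largest differences from mESC of this list. Its signals were 11.62, 12.51 and 12.36 in adult, 12.59, 13.07 and 13.57 in embryo, and 5.6, 5.38 and 5.93 in mESC. The difference from mESC was 6.53 ± 0.31 for adult (adjusted p = 3.23e-06) and 7.44 ± 0.31 for embryo (adjusted p = 2.48e-06). All embryo arrays lay above all adult arrays, yet adult minus embryo was -0.91 and did not pass (adjusted p = 0.0955). Against mESC, 6 of the 18 regulators were higher and 1 lower in adult, and 3 were higher and 2 lower in embryo, beside 6.86% higher and 10.3% lower of all clusters for adult and 4.87% and 6.09% for embryo.

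Targets other than the Id genes include homeobox genes and regulators of bone formation. Of 12, 5 were higher in adult than in embryo and none lower, beside 2.83% of all clusters, and again 5 without adult replicate 1. Over 23 other settings the count of called targets ran from 0 to 5. Dlx3, a homeobox gene of tooth and hair, had 12.43, 11.76 and 12.17 in adult, 7.99, 9.44 and 10.14 in embryo, and 4.73, 4.81 and 5.07 in mESC (adult minus embryo 2.93 ± 0.48, adjusted p = 0.00527). Hey1, also a Notch target, had 11.3, 10.28 and 11.55 in adult and 8.74, 8.98 and 8.38 in embryo (2.34 ± 0.33, adjusted p = 0.00252). Dlx5 differed by 1.25 ± 0.31 (adjusted p = 0.0306), and that call was lost in 11 of 23 other settings, among them the fit of the dental arrays alone (adjusted p = 0.0993). The other called targets, Runx2 (1.84, and 1.23 without adult replicate 1) and Sp7 (2, and 1.77 without it), are also on the osteoblast marker list, which was higher in adult as a whole. Msx2 overlapped between the ages, with 9.47, 11.18 and 11.18 in adult and 8.6, 9.26 and 10.63 in embryo, and both lay above 4.53, 5.13 and 4.99 in mESC.

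Of the E proteins and other dimer partners of the Id proteins, 2 of 8 were lower in adult than in embryo and none higher, beside 3.59% of all clusters called lower. Tcf12 had 9.75, 9.74 and 9.65 in adult, 10.81, 10.78 and 10.8 in embryo, and 7.39, 7.52 and 7.53 in mESC. The 3 groups were thus fully apart, with adult minus embryo at -1.08 ± 0.06 SE (adjusted p = 4.74e-05). Tcf3 had 7.89, 8.01 and 8.02 in adult, 8.76, 9.37 and 9.11 in embryo, and 8, 8.17 and 8.23 in mESC, with adult minus embryo at -1.11 ± 0.15 (adjusted p = 0.00191). Tcf12 was -0.9 under quantile normalisation and Tcf3 -0.96 without embryo replicate 2, both short of the size threshold. Of 3 inhibin and activin subunit genes, Inha, which encodes the inhibin alpha subunit and is no part of activin, was higher than in mESC in adult (3.05 ± 0.17, adjusted p = 7.95e-06) and embryo (3.9 ± 0.17, adjusted p = 3.49e-06). None of the 3 was called between adult and embryo by limma. Inha, which differed by -0.84 (adjusted p = 0.0138), was the 1 with an adjusted p under 0.05, beside 15.9% of all clusters. Inhba and Inhbb, which encode the activin beta subunits that form the activins bound by follistatin, had adult means of 6.34 and 5.61, embryo means of 6.14 and 5.51 and mESC means of 6.3 and 6.42, and neither was called in any comparison.

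**Figure D4:**
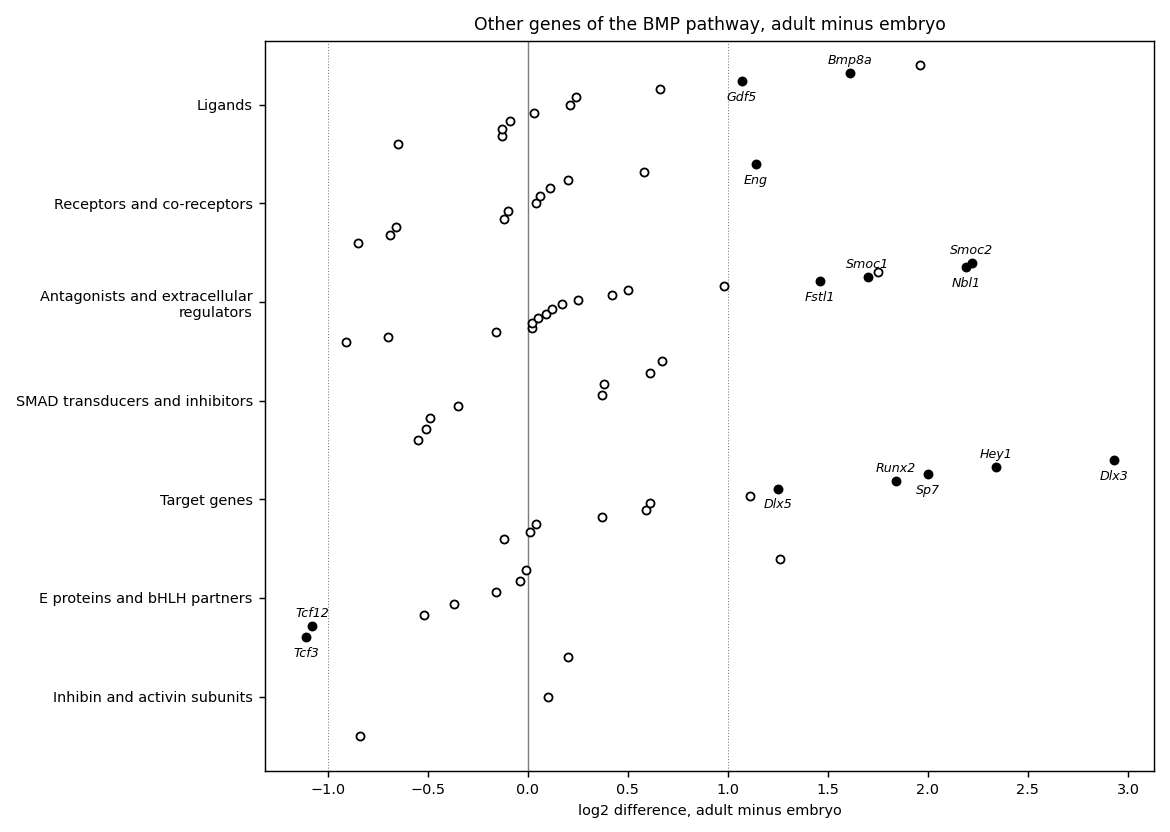
Log2 difference of adult minus embryo for each gene of the 7 lists of other pathway genes, with called genes filled and named and dotted lines at -1 and 1. The called genes lie to the right for ligands, regulators, targets and the co-receptor gene Eng, and to the left for the E protein genes Tcf3 and Tcf12.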

How the data were processed

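The values are log2 signals of transcript clusters, deposited by the authors and named SST-RMA in the file headers. The tools RMA (background correction, normalisation between arrays and probe summary), Transcriptome Analysis Console and Affymetrix Expression Console are named per the submitters' processing notes, without versions. RMA sets arrays on a common scale and compresses dim signals. The authors also deposited signed linear fold values of biweight group means with p-values and FDR adjusted p-values per comparison, per the file headers.

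The value table held 65956 transcript clusters, of which 39601 carry a gene symbol, and 6732 control probe sets. The 9 columns of a second deposited table hold identical values. Its column names give a code for group and sample and 1 of 2 digit strings, but the codes could not be matched to the sample titles (2 embryo columns share a code), so fits with that string used those columns alone. The number of arrays limits the precision. Groups and replicate numbers came from the sample titles.

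All 9 arrays entered 1 limma 3.58.1 fit (R 4.3.3) of group means, with eBayes without trend, no filter on signal and Benjamini-Hochberg adjustment over the 39601 clusters. The call thresholds were an adjusted p of 0.05 and a log2 difference of 1. All adjusted p-values in the report are from limma, except those credited to the authors' table. The script was tested on simulated data. The members and all lists were chosen with earlier results of these data known. All 10 members are named, and of each other list up to 4 called genes by size of difference, plus the 3 nearest genes of each member. A gene left out of the lists is not reported here and enters no list count. Other settings are given in the closing section.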

Additional observations from a re-analysis of the deposited data

How the results depend on the processing

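Results were recomputed under 24 other settings, 9 of which leave out 1 array. Leaving out each array in turn gave 2088 to 2690 clusters called between adult and embryo, 3923 to 4444 between embryo and mESC, and 6566 to 6892 between adult and mESC, with 1 to 3, 6 to 6 and 7 to 9 members among them. Without adult replicate 2, 3 members were called between adult and embryo (Bmp2, Bmp4 and Id2). With array weights 2 members were called there, with clusters above the median of the negative controls 3, and within the second digit string 2, of 1530 clusters. With clusters above the 95th percentile of the negative controls, 1495 clusters were called between adult and embryo (2 members), 2204 between embryo and mESC and 3545 between adult and mESC, since fewer clusters were tested. Bmp2, Nog, Id1 and Id4 reached that percentile of 9.27 on no array and were called in no comparison under this filter. Within the first digit string, which holds no mESC array, limma called 0 clusters and 0 members, against 6112 clusters and 1 member at an unadjusted p under 0.05. The authors' deposited table called 594 clusters and 0 members between adult and embryo. Differences near 0 changed sign and none of them was called: embryo minus mESC for Bmp4 was 0.05 without embryo replicate 3, without mESC replicate 3 and with median centring, and ran from -0.28 to 0.05 over the left-out arrays. Adult minus embryo for Bmp7 was -0.06 without adult replicate 1, -0.02 without embryo replicate 1, -0.02 within the first digit string and -0.01 in the authors' deposited table, and for Id3 it was 0.07 within the second. Over the left-out arrays Bmp7 ran from -0.06 to 0.21. Same-numbered samples correlated at -0.0801 to 0.154 over 9 pairs of their deviations, and samples of different number at -0.126 to 0.113. With 3 arrays a group, these values cannot tell whether the replicate numbers pair the samples. With the replicate number as a block, 2488, 4260 and 6752 clusters were called in the comparisons of adult with embryo, embryo with mESC and adult with mESC, with 1, 6 and 8 members. With the 2 embryo columns of 1 code averaged, 2342, 4332 and 6758 clusters and again 1, 6 and 8 members were called. That setting was chosen after seeing the data, as was the filter at the median of the negative controls. The mean over all clusters of a gene gave no value of its own, as each member has 1 cluster. Signal limits Nog on all arrays, Bmp2 in embryo and mESC, and Id4 in mESC, which lay under the negative-control median of 4.81. Between that median and the 95th percentile of 9.27 lay Id1 on all arrays, Bmp4 in embryo, and Id4 in adult and embryo. In the same range were Bmp2 in adult, Fst on adult replicates 1 and 2, and the mESC values of Bmp4, Bmp7, Bambi, Fst, Id2 and Id3. Causes of these changes were not tested.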
